A study of Homo sapiens with 12 samples.

Results

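The proteasome subunit genes described here are the 31 genes PSMA1 to PSMA7, PSMB1 to PSMB7, PSMC1 to PSMC6 and PSMD1, PSMD2, PSMD3, PSMD4, PSMD6, PSMD7, PSMD8, PSMD11, PSMD12, PSMD13 and PSMD14, out of 19580 genes in the table. They were taken by Ensembl identifier from a list of the subunits of the core and regulatory particles. The core holds 14 of them (7 in the alpha ring and 7 in the beta ring). The regulatory particle holds 17 (6 base ATPases, 3 base subunits that are not ATPases and 8 lid subunits). Of the 31, 30 passed the filter on low values and were tested.

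Ribosome footprints, the mRNA fragments that a translating ribosome shields from RNase I, were sequenced from wild-type HAP1, a human line descended from the leukaemia line KBM-7 that is nearly haploid. 4-thiouridine (4SU), a uridine analogue taken up into new RNA, binds covalently to nearby protein when excited by long-wave ultraviolet light (UVA), so the combination was the treatment meant to crosslink RNA to protein. The 4 groups were untreated cells, cells given 5 uM 4SU for 18 h, cells exposed to 6 kJ per square metre of UVA and harvested 30 min later, and cells given both at those doses (4SU+UVA). Each group had 3 biological replicates of this 1 cell line, 12 libraries in all.

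The proteasome is the protease that degrades proteins tagged with ubiquitin. Its core is a barrel of stacked rings: the outer alpha rings form a gated entrance, and the inner beta rings carry the proteolytic sites. The regulatory particle caps the barrel, with a lid that removes ubiquitin and a base whose ring of ATPases unfolds the substrate and feeds it into the core. Subunits of the assembled complex are used in equal numbers within a particle, and their genes are housekeeping genes in proliferating cells.

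Libraries held 1899854 to 5832366 reads, and the shallowest was 4SU+UVA replicate 2. The 30 tested subunits had 115 to 4083 reads each per library. Values are RPKM, the reads of a gene divided by its transcript length and by its library size, so they give footprints relative to the library's total and not an absolute amount. Footprints alone were analysed here, so less mRNA and fewer ribosomes per mRNA cannot be told apart. Changes are differences of log2(RPKM + 0.5) fitted with limma in 1 model of the 4 groups over 11510 genes, and a gene was called at an adjusted p (Benjamini-Hochberg) under 0.05. The median of all genes tested lay 0.23 above untreated cells in 4SU+UVA, 0.09 in 4SU and 0.05 in UVA on this log2 scale. Medians of the subunits are therefore given beside the median gene, while changes of single genes are not corrected for it unless stated.

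In untreated cells, core genes had the denser footprints. The highest level was that of PSMA4, an alpha-ring subunit (ENSG00000041357), at 698 ± 14 RPKM (SD, n = 3). It was followed by the beta-ring genes PSMB1 at 606.6 ± 9.18, PSMB4 at 549.7 ± 17.7 and PSMB3 at 531.9 ± 34.7 RPKM. PSMB4 and PSMB3 did not differ beyond their spread, while PSMA4 and PSMB1 were separated by more than theirs. At the low end, PSMD12, a lid subunit, stood at 44.0 ± 1.42 RPKM, PSMC6, a base ATPase, at 54.87 ± 0.883, PSMD11, the lid subunit that reaches down to the core, at 76.12 ± 1.13 and PSMB2 at 83.42 ± 1.01. The median level was 373 RPKM over the 14 core genes and 149.8 RPKM over the 16 tested regulatory genes. These levels are per length of the whole transcript, untranslated regions included, and transcripts were 973 nt at the median in the core (762 to 4217) and 1589.5 nt in the regulatory particle (1319 to 4356). PSMB2, the core gene with the lowest level, also had the longest core transcript.

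PSMC1, a base ATPase (ENSG00000100764), was nearly unread. Its values were 0.039 to 0.46 RPKM. They came to 1 to 9 recovered reads per library, 45 in all, against at least 115 for each of the other 30 subunits. The PSMC1 read counts rest on a recovered transcript length that can be wrong at such low values, while the RPKM values are as deposited. RefSeq lists 13 pseudogenes named after PSMC1, compared with at most 4 for any other subunit, and 18 of the 31 subunits have at least 1. How the counting treated reads that match several copies is not given in the sources used here, and its part in the value of PSMC1 was not tested. Because no library reached 1 RPKM, PSMC1 failed the filter on low values. It was not tested and was left out of the medians and correlations. Its few reads are part of the regulatory share of reads, and it is among the 26 subunits whose promoters were searched.

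**Figure D1:**
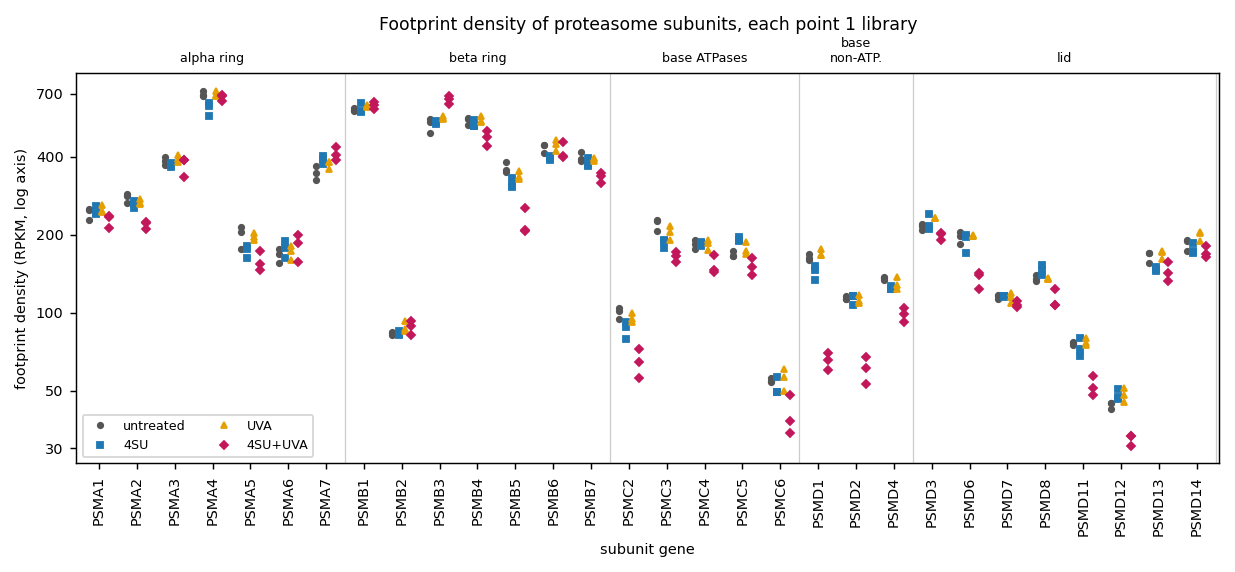
Footprint density in RPKM (log axis) of the 30 tested proteasome subunit genes, grouped by their place in the complex, with 1 point per library and 3 libraries per group. The 3 4SU+UVA points of PSMD1 (59.9 to 69.9 RPKM) and PSMD2 (53.3 to 67.5 RPKM) lie below all 9 other libraries, and those of PSMB3 (638 to 684 RPKM) lie above them.

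The comparison of 4SU+UVA with untreated cells asked how footprints on proteasome mRNAs differed in cells that carried the crosslinking treatment. The regulatory particle fell: 13 of its 16 tested genes were lower and 0 higher (0 higher also at an unadjusted p under 0.05 in limma). No share of all genes at that unadjusted threshold is given here. In the core 5 of 14 genes were lower and 2 higher. The deepest falls were in the large scaffold subunits of the base, PSMD1 to 39.9% of the untreated level and PSMD2 to 53.1%, and in PSMB5, the chymotrypsin-like catalytic subunit, to 61.4%. The 2 genes that rose were PSMB3, a beta-ring subunit with no catalytic site of its own, and PSMA7, an alpha-ring subunit. Of the 30 subunits, 18 were thus lower and 2 higher, where the background over all genes was 18.4% lower and 40.6% higher, 59% in all. The median log2 change was -0.24 over the 30 subunits, -0.06 over the core and -0.42 over the regulatory particle, beside 0.23 over all genes, and 28 of the 30 lay below the median gene. In 19 subunits all 3 treated libraries lay below all 3 untreated ones (20.2% of all genes) and in 2 above them (43.6% of all genes). With libraries centred on their median gene the split was 0 higher and 25 lower, and with quantile normalisation 1 higher and 23 lower. Over all genes centring changed 4674 higher and 2122 lower to 3107 and 2888, and quantile normalisation changed them to 3011 and 2910.

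**Figure D2:**
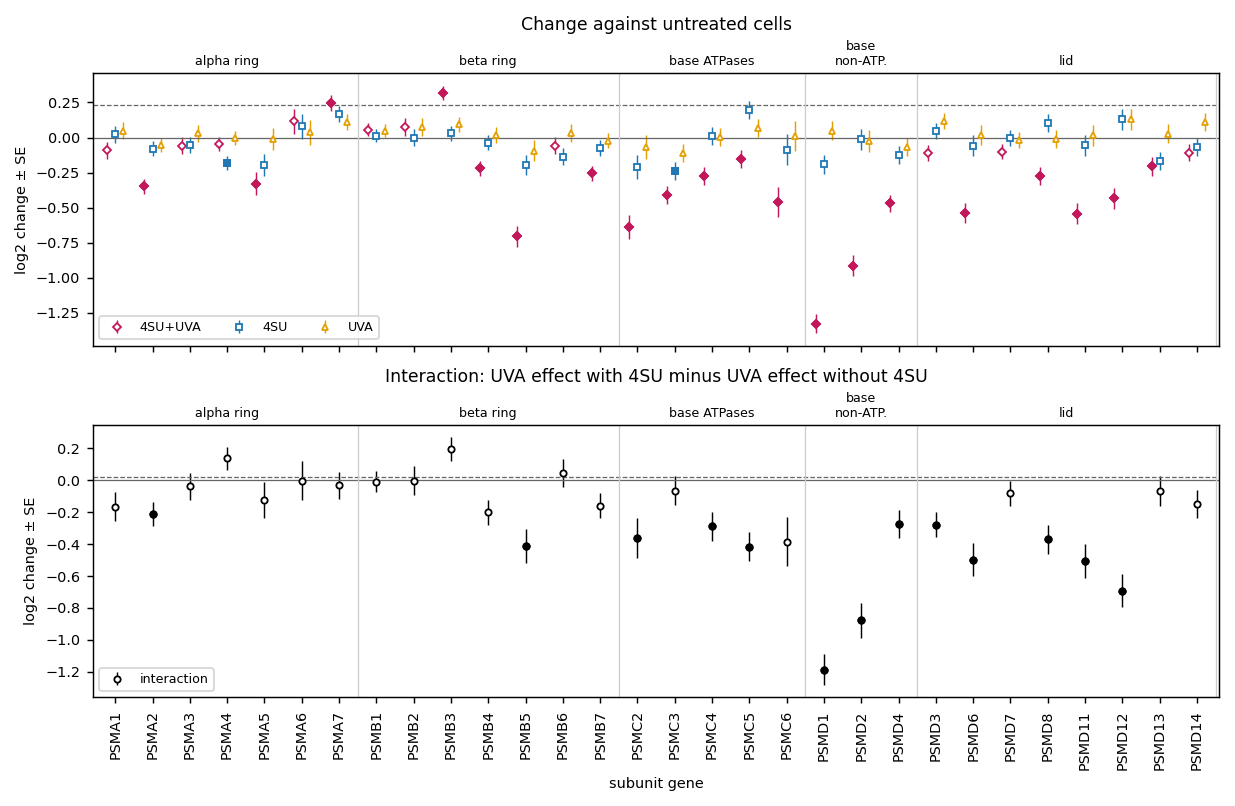
Top, log2 change against untreated cells (± SE) of each tested subunit in 4SU+UVA, 4SU and UVA; bottom, the interaction, what UVA did in 4SU-fed cells minus what it did in cells without 4SU. Filled symbols passed an adjusted p of 0.05 in limma and dashed lines mark the median of all genes, for 4SU+UVA (0.23) in the top panel and for the interaction (0.02) in the bottom panel. Most filled symbols belong to 4SU+UVA and lie in the regulatory particle, and PSMD1 is the lowest in both panels.

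In the alpha ring, which gates the entrance to the barrel, 2 of 7 genes fell and 1 rose in 4SU+UVA. PSMA2 read 283, 286 and 264 RPKM in untreated cells, 271, 254 and 262 in 4SU, 262, 274 and 266 in UVA, and 221, 210.3 and 223 in 4SU+UVA. The 4SU+UVA libraries were the lowest of the 12, with a log2 change of -0.35 (SE 0.05, adjusted p = 6.7e-05, limma). PSMA7 read 325, 347 and 367 RPKM in untreated cells, 401, 375 and 390.5 in 4SU, 359, 381 and 380.1 in UVA, and 437, 389 and 406 in 4SU+UVA. Its 4SU+UVA libraries lay above the untreated ones but overlapped those with 4SU alone. The rise was 0.25 on the log2 scale (SE 0.06, adjusted p = 0.0026, limma), close to the 0.23 of the median gene, and it did not pass after median centring (0.08, adjusted p = 0.35) or quantile normalisation (0.09, adjusted p = 0.19). PSMA6 had the third highest log2 change of the tested subunits. It read 177, 155 and 168 RPKM untreated, 178, 162 and 188 in 4SU, 172, 180.5 and 159.5 in UVA, and 186, 157 and 199.7 in 4SU+UVA. These groups overlapped, and its log2 difference of 0.11 did not pass (adjusted p = 0.28, limma), although it did without 4SU+UVA replicate 2 (0.21, adjusted p = 0.037). PSMA5 fell by 0.33 on the log2 scale, and PSMA1, PSMA3 and PSMA4 had changes of -0.09, -0.06 and -0.05 that did not pass. These 3 passed in limma after median centring (-0.26, -0.23 and -0.22, adjusted p = 0.0058, 0.01 and 0.0045) and after quantile normalisation (-0.14, -0.20 and -0.18, adjusted p = 0.049, 0.0056 and 0.0065).

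The beta ring holds the 3 catalytic subunits, and in 4SU+UVA these did not share 1 value. PSMB5 (ENSG00000100804) read 354, 381 and 348 RPKM in untreated cells, 330.5, 309.9 and 306 in 4SU, 329, 334 and 351 in UVA, and 254, 206 and 208 in 4SU+UVA. Every 4SU+UVA library was below the other 9, and the log2 change was -0.70 (SE 0.07, adjusted p = 2.5e-06, limma). PSMB7, the trypsin-like subunit, read 386, 416 and 391 RPKM untreated, 396, 371 and 367 in 4SU, 392, 385 and 397 in UVA, and 347, 338 and 316 in 4SU+UVA. Its groups also did not overlap, at a smaller log2 change of -0.25 (SE 0.05, adjusted p = 0.001, limma). PSMB6, the caspase-like subunit, read 413, 445 and 444 RPKM untreated, 395, 388 and 401 in 4SU, 446, 420.3 and 465 in UVA, and 455, 397 and 401 in 4SU+UVA. These overlapped, and its log2 change of -0.06 did not pass (adjusted p = 0.43, limma), whereas it passed after median centring (-0.23, adjusted p = 0.012) and quantile normalisation (-0.21, adjusted p = 0.0016).

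Among the other beta-ring genes, PSMB3 rose. It (ENSG00000277791) read 493, 558 and 545 RPKM in untreated cells, 534, 548 and 545 in 4SU, 565, 559.9 and 575 in UVA, and 684, 666 and 638 in 4SU+UVA. The 3 4SU+UVA libraries were the highest of the 12, and the log2 change was 0.32 (SE 0.05, adjusted p = 0.00013, limma). After median centring it was 0.15 and just missed the threshold (adjusted p = 0.051). PSMB4 fell by 0.22 on the log2 scale, while PSMB1 and PSMB2 had changes of 0.06 and 0.07 that did not pass, nor did they after median centring, at -0.12 and -0.10.

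The base of the regulatory particle was lower throughout in 4SU+UVA: 3 of 3 subunits that are not ATPases and 5 of 5 tested ATPases fell. PSMD1 (ENSG00000173692) read 159.9, 169 and 163 RPKM in untreated cells, 146, 134 and 151 in 4SU, 166, 176 and 167 in UVA, and 69.9, 59.9 and 65.7 in 4SU+UVA. The highest 4SU+UVA library, at 69.9 RPKM, lay well under the lowest of the other 9, at 134, and the log2 change was -1.33 (SE 0.07, adjusted p = 2.7e-09, limma). PSMD2, which docks the shuttle factors that deliver ubiquitinated proteins (ENSG00000175166), read 113, 113 and 116 RPKM untreated, 116, 116 and 107 in 4SU, 111, 109 and 117 in UVA, and 67.5, 53.3 and 61 in 4SU+UVA. It too was separated from all other libraries, with a log2 change of -0.91 (SE 0.08, adjusted p = 2.8e-07, limma). PSMD4, a ubiquitin receptor, read 136, 134 and 138 RPKM untreated, 127, 123 and 123 in 4SU, 124, 128 and 138 in UVA, and 98.5, 91.8 and 104 in 4SU+UVA. The 4SU+UVA libraries were the lowest here as well, and PSMD4 fell by 0.47 on the log2 scale (SE 0.06, adjusted p = 2e-05, limma).

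Of the ATPases, which form the unfolding ring, PSMC2 fell furthest. It read 94.7, 101 and 104 RPKM in untreated cells, 79.2, 88.0 and 92.2 in 4SU, 92.0, 99.8 and 94.2 in UVA, and 64.5, 56.1 and 72.4 in 4SU+UVA. These 4SU+UVA values lay below the other 9 libraries, at a log2 change of -0.64 (SE 0.09, adjusted p = 2.8e-05, limma). PSMC4 read 176, 184 and 190.5 RPKM untreated, 181, 188 and 186 in 4SU, 191, 175 and 186 in UVA, and 167, 146 and 144 in 4SU+UVA, again without overlap. It fell by 0.27 on the log2 scale (SE 0.06, adjusted p = 0.0023, limma). PSMC5 read 166, 165 and 173 RPKM untreated, 192, 189 and 196 in 4SU, 168, 187 and 172 in UVA, and 163, 139.6 and 150.3 in 4SU+UVA. Its 4SU libraries were the highest of the 12 and its 4SU+UVA libraries the lowest. Against untreated cells its change of -0.16 passed narrowly (SE 0.06, adjusted p = 0.048, limma) and did not pass in 13 of the 20 alternatives, among them each fit without 1 untreated library (-0.17 to -0.13) and those without 4SU+UVA replicate 2 (-0.10) or 3 (-0.15), 4SU replicate 1 or 2, or UVA replicate 1 or 3 (-0.16 each). PSMC6 and PSMC3 fell by 0.46 and 0.41.

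In the lid, which takes ubiquitin off the substrate, 5 of 8 genes fell in 4SU+UVA. PSMD11 read 77.1, 74.9 and 76.3 RPKM untreated, 79.5, 68.2 and 72.4 in 4SU, 75.0, 76.3 and 79.5 in UVA, and 57.1, 48.3 and 51.1 in 4SU+UVA. PSMD6 read 185, 205 and 198 RPKM untreated, 170.1, 199.6 and 196 in 4SU, 198, 197 and 199 in UVA, and 142, 124 and 139 in 4SU+UVA. For both, the 4SU+UVA libraries lay below the other 9, and they fell by 0.54 each on the log2 scale (SE 0.07 and 0.07, adjusted p = 2.9e-05 and 2.2e-05, limma). PSMD12 read 44.9, 42.4 and 44.8 RPKM untreated, 50.9, 46.3 and 47.5 in 4SU, 45.4, 51.2 and 48.1 in UVA, and 33.4, 30.7 and 33.3 in 4SU+UVA. PSMD8 read 135, 139.5 and 133 RPKM untreated, 146, 153 and 139.6 in 4SU, 134, 135 and 136 in UVA, and 123, 107 and 107 in 4SU+UVA. They too did not overlap with any other group, and they fell by 0.43 and 0.27 (adjusted p = 0.00017 and 0.0023, limma).

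The remaining lid genes had smaller changes. PSMD3 read 215, 209 and 219 RPKM untreated, 216, 240.1 and 209.6 in 4SU, 232, 232 and 233 in UVA, and 202, 202 and 191 in 4SU+UVA. Its 4SU+UVA libraries were the lowest of the 12, but the log2 change of -0.11 did not pass (adjusted p = 0.10, limma). PSMD14, the deubiquitinase of the lid, and PSMD7, its partner, had changes of -0.11 and -0.10 that did not pass. After median centring all 3 passed in limma, PSMD3 at -0.28 (adjusted p = 0.0011), PSMD14 at -0.28 (adjusted p = 0.0043) and PSMD7 at -0.27 (adjusted p = 0.0013), and after quantile normalisation PSMD3 did (-0.16, adjusted p = 0.03). PSMD13 fell by 0.21 (adjusted p = 0.017, limma), and its change did not pass without untreated replicate 2 (-0.18, adjusted p = 0.062), untreated replicate 3 (-0.18, adjusted p = 0.063) or 4SU+UVA replicate 2 (-0.15, adjusted p = 0.073). Its 4SU+UVA libraries overlapped the untreated ones. With 4SU alone its log2 change was -0.17 (not called), and 4SU+UVA differed from 4SU by -0.04 (adjusted p = 0.67, limma).

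Core and regulatory particle were then set against each other in each library. Core genes took 0.544 ± 0.014% (SD, n = 3) of all reads in untreated cells, 0.525 ± 0.012% with 4SU, 0.553 ± 0.0017% with UVA and 0.519 ± 0.023% with 4SU+UVA. In 4SU+UVA, replicates 1 and 3 lay within the range of the other 9 libraries and replicate 2, at 0.494%, below it. Regulatory genes took 0.435 ± 0.0093% in untreated cells, 0.420 ± 0.0015% with 4SU, 0.442 ± 0.0061% with UVA and 0.319 ± 0.018% with 4SU+UVA. The regulatory share in the 3 4SU+UVA libraries did not overlap with any of the other 9.

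Within a library, the median core gene minus the median regulatory gene, each taken as the log2 difference from its untreated mean, was 0.26, 0.34 and 0.36 in 4SU+UVA replicates 1, 2 and 3. In the other 9 libraries it was between -0.02 and 0.05. In 4SU+UVA replicate 2, the shallowest library, both medians were lowest, at -0.16 for the core and -0.49 for the regulatory particle, and the difference between them was within the range of the other 4SU+UVA libraries. Over the groups, the core minus regulatory difference was 0.36 in 4SU+UVA, 0.01 in 4SU and 0.02 in UVA, each against untreated cells. It was 0.25 in 4SU+UVA with quantile normalisation and 0.18 when the core was set against the lid alone. These differences are descriptions of chosen gene groups, and no test was run on them.

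**Figure D3:**
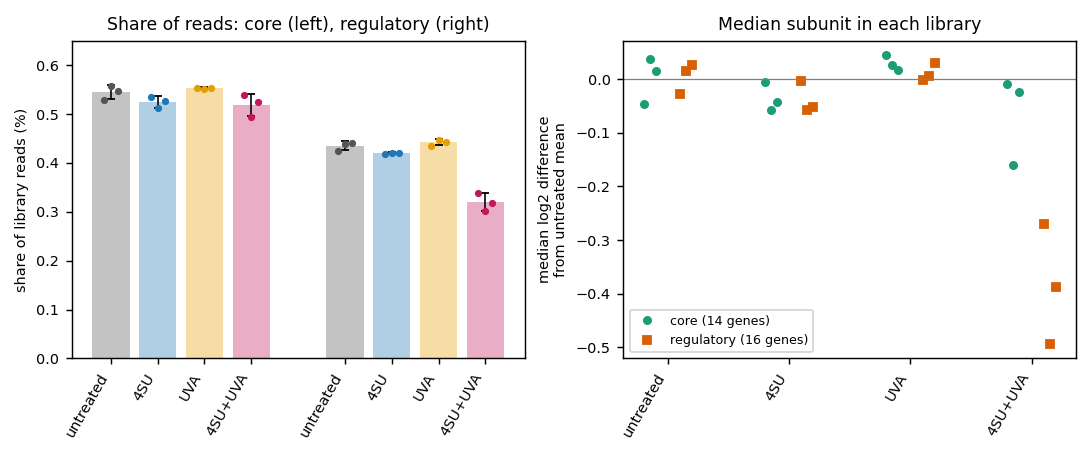
Left, share of library reads (%) on core and regulatory genes, with bars for the mean of 3 libraries, error bars for the SD and points for libraries. Right, the log2 difference from the untreated mean of the median core gene (14 genes) and the median regulatory gene (16 genes) in each library, where only the 4SU+UVA libraries set the regulatory genes 0.26 to 0.36 below the core.

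Transcript length and level differed between the particles and, across the 30 subunits, were correlated with the change. Across the 30 subunits, Spearman's rho between transcript length and the log2 change in 4SU+UVA against untreated cells was -0.49, and it was -0.23 within the core (n = 14), -0.38 within the regulatory particle (n = 16) and -0.22 over the 11510 genes. With the mean level, rho was 0.54 over the subunits, 0.22 within the core, 0.49 within the regulatory particle and -0.30 over all genes. That level is the mean log2 value of all 12 libraries, so the libraries that define the change are also part of the level. These are correlations across genes of the same libraries, and genes are not independent replicates. Among subunits with transcripts under 2000 nt, the median change was -0.06 over 13 core genes (2 higher, 5 lower). It was -0.27 over 10 regulatory genes (0 higher, 8 lower). Over the 4020 genes of that length the median was 0.34 (2016 higher, 369 lower). At 2000 nt or more, 6 regulatory genes had a median of -0.59 (0 higher, 5 lower), and the only core gene, PSMB2, stood at 0.07. Over the 7490 genes of that length the median was 0.16 (2658 higher, 1753 lower). PSMB5, with a transcript of 900 nt, had the lowest log2 change among the subunits under 2000 nt. The part of length and level in the difference between the particles was not tested.

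**Figure D4:**
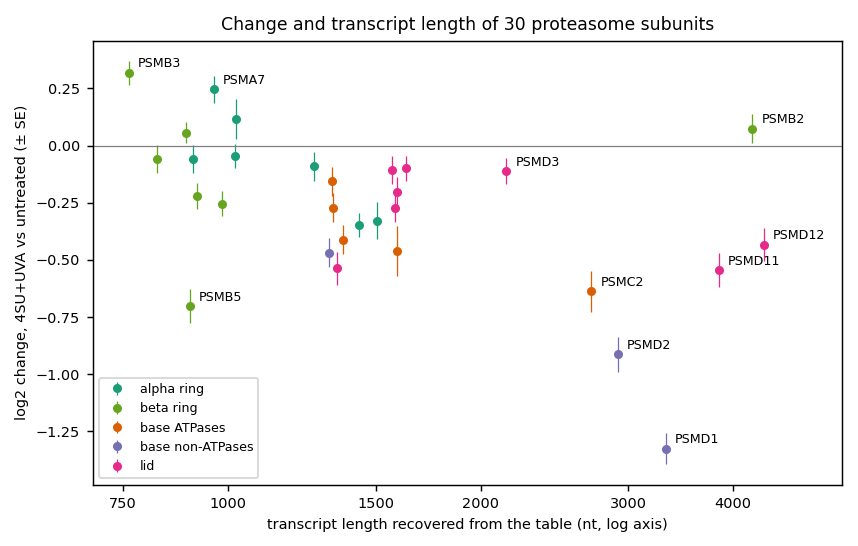
Log2 change in 4SU+UVA against untreated cells (± SE) of 30 proteasome subunits, plotted against transcript length in nt (log axis) and coloured by place in the complex. PSMD1, PSMD2 and PSMC2 combine long transcripts with low values, while PSMB5 at 900 nt and -0.70, and PSMB2 at 4217 nt and 0.07, lie away from that order.

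Each single treatment was compared with the same untreated libraries. With 4SU alone, 2 of 30 subunits fell and 0 rose, where the background was 14.4% called, 11.3% higher and 3.12% lower. These calls and shares use the adjusted p. At an unadjusted p under 0.05 in limma, 2 subunits were higher and 8 lower. The share of all genes at the unadjusted threshold is not given here, so these counts have no background beside them. PSMA4 read 693, 714 and 687 RPKM in untreated cells, 629, 574 and 644 in 4SU, 689, 717 and 684 in UVA, and 684, 653 and 691 in 4SU+UVA. Its 4SU libraries were the lowest of the 12, and it fell by 0.18 on the log2 scale (SE 0.05, adjusted p = 0.028, limma). PSMC3 fell by 0.24 (SE 0.06, adjusted p = 0.023, limma), from 219.6 ± 11.6 to 185.8 RPKM. Both calls were lost without untreated replicate 2, untreated replicate 3, 4SU replicate 1 or 4SU replicate 2 (-0.20 to -0.13 for PSMA4 and -0.26 to -0.21 for PSMC3), and PSMA4 was also lost without untreated replicate 1 (-0.19). The count was 4 without 4SU+UVA replicate 1 or 2, 11 (all lower) after median centring and 7 (6 lower) by voom on the recovered reads. Over all genes median centring changed 1295 higher and 359 lower to 640 and 1080, and voom gave 1749 and 596. Without 4SU+UVA replicate 1 or 2 all genes gave 1277 and 380, or 1429 and 442. The libraries of the 2 groups did not overlap in 12 subunits, with 4SU below in 8 (10.1% of all genes) and above in 4 (25.1% of all genes). The median subunit was at -0.05, beside 0.09 over all genes.

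With UVA alone, 0 of 30 subunits passed in limma, where the background was 0.652% of genes called (0.278% higher and 0.374% lower). None passed at an unadjusted p under 0.05 in limma either, but the share of all genes at that threshold is not given here. Voom on the recovered reads also called 0 subunits, and over all genes it called only 55 higher and 45 lower. All 30 log2 changes lay between -0.11 and 0.13, with a median of 0.02 beside 0.05 over all genes. Core and regulatory genes gave medians of 0.03 and 0.01. All 3 UVA libraries lay above all 3 untreated ones in 5 subunits (12.8% of all genes) and below them in 0 (3.93% of all genes).

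Light was also compared in cells that carried 4SU. Between 4SU+UVA and 4SU, 13 of 16 regulatory genes fell and 0 rose, while in the core 4 of 14 fell and 2 rose, which makes 2 higher and 17 lower of 30 against a background of 44% called, 25% higher and 19% lower. The libraries did not overlap in 19 subunits that were lower (21.4% of all genes) and 2 that were higher (29.6% of all genes). The median log2 change was -0.18 over the subunits, beside 0.09 over all genes. PSMD1 fell by 1.14 on the log2 scale, PSMD2 by 0.90 and PSMD12 by 0.56 (adjusted p = 2.1e-08, 6.3e-07 and 2.9e-05, limma). PSMB3 rose by 0.29 (adjusted p = 5e-04, limma). PSMA4 rose by 0.14 from its lower level in 4SU (adjusted p = 0.042, limma), a call lost in 13 alternatives and turned to -0.01 by quantile normalisation. It was lost without 4SU replicate 2 (0.09), without 4SU+UVA replicate 1 (0.13) or 3 (0.12), and without any 1 untreated or UVA library (0.14). Among the falls, PSMC3 lost its call in 9 alternatives, PSMD3, PSMB4 and PSMB7 in 3 each and PSMC6 in 2. Without a variance trend 1 subunit was higher and 13 lower, and likewise without 4SU+UVA replicate 3. Over all genes those fits gave 2829 higher and 2125 lower, and 2486 and 2059. With quantile normalisation 1 was higher and 20 lower, PSMA1, PSMA3 and PSMB1 being added to the lower, and all genes gave 2360 and 2599.

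Between 4SU+UVA and UVA, which differ in the nucleoside, 15 of 16 regulatory genes fell and 0 rose, and in the core 5 of 14 fell and 1 rose. That is 1 higher and 20 lower of 30, against a background of 54.4% called, 34.7% higher and 19.8% lower. The libraries did not overlap in 21 subunits that were lower (21.5% of all genes) and 2 that were higher (37.9% of all genes). The median log2 change was -0.23 over the subunits, beside 0.18 over all genes. PSMD1 fell by 1.38, PSMD2 by 0.89 and PSMB5 by 0.61 on the log2 scale (adjusted p = 1.4e-09, 3.7e-07 and 1.1e-05, limma). PSMD7 was the regulatory gene that did not pass, at -0.08, but it did after median centring (-0.17, adjusted p = 0.023, limma). In the core, PSMA1, PSMA3 and PSMB6 also passed as lower after median centring and after quantile normalisation. PSMA4 and PSMB1 did so after quantile normalisation alone. These fits called 0 higher and 24 lower with centring, and 0 and 25 with quantile normalisation. Over all genes they gave 3138 higher and 2683 lower, and 2900 and 2820. PSMB3 rose by 0.22 (adjusted p = 0.0023, limma), but by 0.14 after median centring and 0.06 after quantile normalisation, neither of which passed. These comparisons share the 4SU+UVA libraries with each other and with the comparison against untreated cells, so their values are not separate evidence.

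The interaction asked whether the UVA effect in cells with 4SU differed from the UVA effect in cells without it. It was negative and passed in 13 of 30 subunits, 11 of 16 in the regulatory particle and 2 of 14 in the core, and 0 were positive (1 was at an unadjusted p under 0.05 in limma). At the adjusted threshold the background was 24.8% of genes called, 10.7% positive and 14.1% negative. The share of all genes at the unadjusted threshold is not given here. The median interaction was -0.03 over the core and -0.36 over the regulatory particle, beside 0.02 over all genes. PSMD1 had the lowest value, -1.19 (SE 0.10, adjusted p = 9e-07, limma), followed by PSMD2 at -0.88 (SE 0.11, adjusted p = 5.4e-05) and PSMD12 at -0.69 (SE 0.10, adjusted p = 0.00026). PSMD12 and PSMC5 had higher log2 values with 4SU or UVA alone (0.13 and 0.13 for PSMD12, 0.19 and 0.06 for PSMC5, none called), which adds to their interaction. By role, the 13 comprise 3 base subunits that are not ATPases, the ATPases PSMC2, PSMC4 and PSMC5, the lid genes PSMD3, PSMD6, PSMD8, PSMD11 and PSMD12, and in the core PSMA2 and PSMB5. The count fell to 8 without untreated replicate 2 or 4SU replicate 2, and to 8 after median centring. In that order, these fits gave over all genes 998 positive and 1339 negative, 1016 and 1370, and 1435 and 1409. With quantile normalisation the count was 15, all negative, where all genes gave 1288 positive and 1648 negative. There the core genes PSMB1 (-0.21, adjusted p = 0.01), PSMB4 (-0.38, adjusted p = 0.0019) and PSMB7 (-0.28, adjusted p = 0.0064) passed in limma, and PSMC2 did not (-0.30, adjusted p = 0.095). Without untreated replicate 1, PSMB3 passed as positive (0.25, adjusted p = 0.022, limma), with 1047 positive and 1432 negative over all genes.

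Promoters were read for motifs known from proteasome genes. The antioxidant response element, through which the factor NFE2L1 raises proteasome genes when proteolysis is impaired, has the core TGACNNNGC. In the 250 bases before the RefSeq start, on either strand, it was found in 5 of the 26 subunits that have a promoter in the RefSeq table (19.2%), beside 13.2% of the 27305 genes with a promoter there. The stretches are shown because they hold the letters of that element, on GRCh38.p14, 5′ to 3′ on the gene's strand, with the 9 bases of the match in capitals.
PSMA4, chr15:78540648-78540680, plus strand: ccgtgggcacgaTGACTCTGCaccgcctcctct
PSMB3, chr17:38752625-38752657, plus strand: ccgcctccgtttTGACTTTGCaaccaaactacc
PSMC5, chr17:63827652-63827684, plus strand: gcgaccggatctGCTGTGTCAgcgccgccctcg
PSMD3, chr17:39980758-39980790, plus strand: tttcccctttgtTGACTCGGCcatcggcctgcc
PSMD12, chr17:67366722-67366754, minus strand: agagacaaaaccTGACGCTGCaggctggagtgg
In PSMA4 and PSMC5 the match lies inside the gene, before a later RefSeq start, and in PSMC5 it is on the opposite strand. In PSMB3, PSMD3 and PSMD12 it lies upstream of the gene. The 5 genes had log2 changes in 4SU+UVA of -0.05, 0.32, -0.16, -0.11 and -0.43, so their values spanned both signs. The CCAAT box was in 14 of 26 subunits (53.8%, beside 37% of those genes) and the ETS core CCGGAAG in 6 of 26 (23.1%, beside 10.2%). A gene was counted if any of its promoters held the letters. Per promoter, the shares over all 35116 promoters were 10.9% for TGACNNNGC, 32% for CCAAT and 8.52% for CCGGAAG. The 3 motifs were searched separately, so their matches may share bases. A match describes the letters only, and binding was not measured.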

How the data were processed

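Ribosome footprints of 12 HAP1 libraries (4 groups of 3, with group and replicate number from the titles; the series' design text calls the replicates biological) were deposited as 1 table. The authors deposited RPKM values for 19580 genes under Ensembl identifiers. The aligner was STAR 2.7.10a and the build hg38, per the submitters' processing notes. Neither counting nor annotation, nor the handling of reads with several matches, is stated: not given in the sources used here. Size selection was by gel, per the labels' protocols, and no molecular identifiers are described there.

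The steps between RPKM values gave back the total of each library, the length of each transcript and the whole reads. All 15937 genes with a read had a length, and rebuilt values differed by at most 0.001 of their size. The genes in the table held 99.93 to 99.95% of each total. The recovery and the fit were tested on simulated data. Genes with few reads can receive a wrong length, and with it wrong read counts. No length is therefore given for PSMC1.

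Values were tested as log2(RPKM + 0.5) by lmFit and trended eBayes of limma 3.58.1 (R 4.3.3). A gene was tested if 3 or more libraries had 1 RPKM or more, which left 11510 genes. The model had 4 group means over 12 libraries and 8 residual degrees of freedom. All p-values are two-sided and adjusted by Benjamini-Hochberg over the genes tested. A fold on this scale understates changes of low genes. Alternatives were pseudocounts of 0.1 and 1, no filter, median centring, quantile normalisation, no variance trend, the replicate number as a block, voom on the recovered reads, leaving out each library, and the core against the ATPases or the lid.

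The 31 subunits and the lists were chosen with earlier results of these data known. All 31 were to be described, with every library's value for the 3 highest and 3 lowest in 4SU+UVA against untreated cells, the 3 catalytic subunits and those whose interaction passed. PSMA4 and PSMC3 were added after their values were seen. Subunit symbols follow the order of the member list; all 31 were in the RefSeq table, which paired 0 genes with Ensembl identifiers, so other pathway genes and cell type markers were not used here. Transcript length with its division at 2000 nt, pseudogenes and promoter motifs were chosen after the data were seen. Sequences and gene names of pseudogenes are from RefSeq, GRCh38.p14.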

Additional observations from a re-analysis of the deposited data

Results flagged for a closer look

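The UVA effect differed between cells with and without 4SU in 13 subunits, by limma's interaction term at an adjusted p under 0.05 over all genes tested, where 24.8% of genes passed. Each value is the UVA effect with 4SU minus that without it, in log2 units, and each was negative.

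In the base, PSMD1 was at -1.188, PSMD2 at -0.877 and PSMD4 at -0.276, and the ATPases PSMC5, PSMC2 and PSMC4 were at -0.415, -0.361 and -0.289. In the lid, PSMD12 was at -0.693, PSMD11 at -0.504, PSMD6 at -0.498, PSMD8 at -0.369 and PSMD3 at -0.277. In the core, PSMB5 was at -0.413 and PSMA2 at -0.213. The adjusted p of PSMA2 (0.049), PSMC2 (0.047), PSMD4 (0.033), PSMC4 (0.031) and PSMD3 (0.022) from limma were the 5 nearest the threshold. Of 20 alternatives, 16 lost the call for PSMA2, 14 for PSMC2, 10 for PSMD4, 9 for PSMC4 and 5 for PSMD3. Leaving out any 1 of the 12 libraries lost the call for PSMA2 (-0.24 to -0.18). For PSMC2 it was lost without any library but 4SU replicate 1 and 4SU+UVA replicate 3 (-0.39 to -0.27 where lost). For PSMD4 it was lost without any untreated library, 4SU replicate 1 or 2, UVA replicate 2 or 3, or 4SU+UVA replicate 2 (-0.29 to -0.23). For PSMC4 it was lost without untreated replicate 1 or 2, 4SU replicate 2, UVA replicate 1 or 3, or 4SU+UVA replicate 2 or 3 (-0.29 to -0.25). For PSMD3 it was lost without untreated replicate 2, 4SU replicate 2 or 4SU+UVA replicate 3 (-0.26 to -0.22). The other 8 kept their call in the 20 alternatives.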

How the results depend on the processing

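Counts of called subunits in 4SU+UVA against untreated cells, 4SU or UVA, and in UVA against untreated cells, stayed within 1.5 times under the alternatives run. For 4SU against untreated cells the count of 2 became 1 without a filter, 11 with median centring, 0 without a variance trend, 7 with voom, and 0 to 4 on leaving out 1 library. Over all genes, 4SU calls were 968 higher and 264 lower without a filter (15937 genes tested), and 1077 and 215 without a variance trend. On leaving out 1 library they were 581 to 1536 higher and 139 to 513 lower. The interaction count of 13 became 8 with median centring, 15 with quantile normalisation, 8 without a variance trend and 8 to 12 on leaving out 1 library. Over all genes the interaction without a variance trend gave 1117 positive and 1468 negative. On leaving out 1 library it gave 998 to 1221 positive and 1338 to 1608 negative. The core minus regulatory difference kept its sign in 4SU+UVA against untreated cells (0.364; 0.251 with quantile normalisation, 0.180 against the lid, 0.306 to 0.380 on leaving out 1 library), against 4SU (0.376; 0.221, 0.283, 0.305 to 0.404) and against UVA (0.263; 0.103, 0.159, 0.235 to 0.318). The interaction gave 0.331, then 0.126 with quantile normalisation and 0.253 to 0.343 on leaving out 1 library. For 4SU alone it was 0.012, 0.041 against the ATPases and -0.016 against the lid, and for UVA alone 0.017 and 0.055 with quantile normalisation. Quantile normalisation turned 3 single values: PSMA4 against 4SU to -0.01, and PSMB1 against 4SU and against UVA to -0.13 each. A change of sign was counted only where a value passed in at least 1 of both fits, and 121 further changes of sign concerned values that passed in neither. The causes were not tested. The values showed no pairing by replicate number: same-numbered deviations correlated at -0.046 to 0.068 and others at -0.068 to 0.062. Whether same-numbered samples were prepared together cannot be read from this. With the replicate block the counts were 19, 2, 0, 18, 21 and 12, against 20, 2, 0, 19, 21 and 13 without it. The order is 4SU+UVA, 4SU and UVA against untreated cells, 4SU+UVA against 4SU and against UVA, and the interaction. Over all genes the block gave 4697 higher and 2121 lower, 1264 and 348, 34 and 42, 2859 and 2186, 3961 and 2262, and 1192 and 1598. Levels per coding length were not run. Depth limits the lower range: 4SU+UVA replicate 2 had 1899854 reads.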
